A study of Mus musculus with 6 samples.

Results

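The *Nat8* cluster is a group of 8 acetyltransferase genes, *Nat8* and *Nat8f1* to *Nat8f7*, that lie side by side on the minus strand of mouse chromosome 6. The members were found by symbol in the count table, where all 8 were present among 55536 listed genes. The group was chosen by the measured counts of 1 member, *Nat8f2*, which was higher in TKO than in Ctrl libraries, so the change of *Nat8f2* itself is described here without a test. RNA was sequenced in bulk from basal keratinocytes, the stem and progenitor layer of the epidermis, sorted as Epcam+ α6+ cells from the dorsal skin of E16.5 mouse embryos. The 3 TKO embryos were Suv39h1 f/f, Suv39h2-/-, Setdb1 f/f and K14CreERT2+, and the 3 Ctrl embryos carried the same alleles without the recombinase, so that both groups lacked functional *Suv39h2*. All embryos were exposed to tamoxifen, which activates the recombinase only in cells that use the *Krt14* promoter, and the study describes loss of the histone mark in such embryos as often mosaic. The female embryos were Ctrl replicate 1 and TKO replicate 2, and the remaining 4 were male.

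*Nat8* encodes cysteine-S-conjugate N-acetyltransferase, a membrane enzyme of the endoplasmic reticulum that is known from kidney and liver. It adds an acetyl group to cysteine conjugates and so completes the mercapturic acid pathway, in which glutathione is joined to a reactive compound, trimmed to a cysteine conjugate, acetylated and excreted. The mouse carries several further copies of the gene, and the role of each copy is less well known. The enzymes deleted here, Suv39h1, Suv39h2 and Setdb1, place H3K9me3, a histone mark of silent chromatin.

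The cluster spans 209.553 kb of the GRCm39 assembly (chr6:85683709-85893261) in the order *Nat8f7*, *Nat8f3*, *Nat8f6*, *Nat8f5*, *Nat8*, *Nat8f2*, *Nat8f4* and *Nat8f1*. *Nat8f2* (chr6:85842404-85872422) is separated from *Nat8* by 32.7 kb and from *Nat8f4* (chr6:85876033-85881887) by 3.61 kb. *Nat8f1* (chr6:85885928-85893261) lies at the distal end, 4.04 kb beyond *Nat8f4*. The annotated exons of *Nat8f5* and *Nat8f6* share 171 bases. The coding sequence of *Nat8f2* holds 714 bases and is closest to that of *Nat8f4*, at 85.0% identity. It is 73.1% identical to that of *Nat8* and 66.1% identical to that of *Nat8f7*. *Nat8f7*, *Nat8f3* and *Nat8f6* are near copies, with identities from 99.1% to 99.6%.

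**Figure D1:**
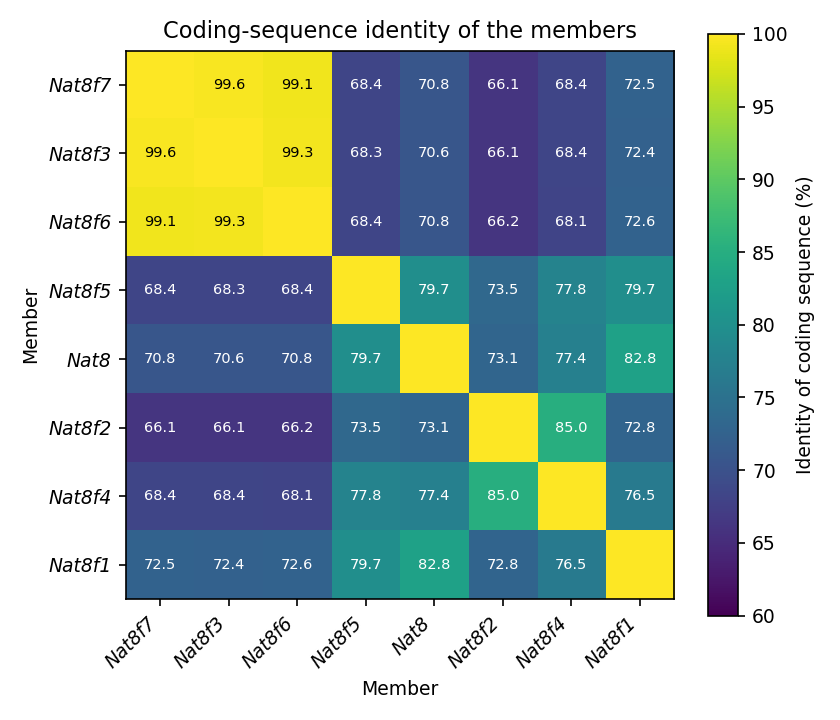
Identity of the coding sequences (percent, colour and numbers) for each pair of the 8 members, in chromosomal order on both axes. *Nat8f7*, *Nat8f3* and *Nat8f6* form a block above 99%, and *Nat8f2* reaches its highest value, 85.0%, with *Nat8f4*.

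The promoter windows of RefSeq, 300 bases from 250 before to 50 after each annotated start, show which members share sequence at a start. The rarest word of 12 letters, 1 of them open, that stands in the windows of 4 members is TGGTTTATNATT, which is printed for that reason. It was found by comparing the members' windows, those of *Nat8f7*, *Nat8f6*, *Nat8f5* and *Nat8f2*, and stands in 12 of 32851 mouse promoter windows (0.0365%) when both strands are searched. The 30 bases that begin with it are given 5′ to 3′ on the minus strand of GRCm39. Capitals mark the fixed letters of the word and, where it follows, CCAAT.
Nat8f7, chr6:85685613-85685642: TGGTTTATaATTatcaaacatccagctttc
Nat8f6, chr6:85786921-85786950: TGGTTTATaATTatcaaacatccagctttc
Nat8f5, chr6:85798002-85798031: TGGTTTATgATTacccaggagccagCCAAT
Nat8f2, chr6:85846125-85846154: TGGTTTATgATTgtccaggagtcagCCAAT
The first base of the block lies at position -99 from the RefSeq start in *Nat8f7*, at -91 in *Nat8f6*, at -77 in *Nat8f5* and at -35 in *Nat8f2*. In *Nat8f5* and *Nat8f2* the 30 bases end in CCAAT, letters that stand in 37.4% of all promoter windows on either strand. The other 3 members of the cluster that carry the word had no more than 3 counts in any library. In *Nat8f2* the RefSeq start lies inside the longer gene of the GENCODE annotation, and the counts per gene do not tell transcripts from the different starts apart.

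CpG dinucleotides, the sites of DNA methylation, were also counted in these windows. *Nat8f2* holds 4, and 31.4% of all promoter windows hold fewer. *Nat8f4* has 2 RefSeq starts, with 2 and 12 CpGs, and *Nat8f1* has 23. The bases before the start of *Nat8f2* that lie outside annotated exons, and those before the start of *Nat8f4* that has 12 CpGs, are shown with CpG in capitals, 5′ to 3′ on the minus strand, because these adjacent genes had different counts in Ctrl.
Nat8f2, chr6:85846314-85846369: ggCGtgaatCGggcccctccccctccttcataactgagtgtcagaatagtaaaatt
Nat8f4, chr6:85881921-85882170: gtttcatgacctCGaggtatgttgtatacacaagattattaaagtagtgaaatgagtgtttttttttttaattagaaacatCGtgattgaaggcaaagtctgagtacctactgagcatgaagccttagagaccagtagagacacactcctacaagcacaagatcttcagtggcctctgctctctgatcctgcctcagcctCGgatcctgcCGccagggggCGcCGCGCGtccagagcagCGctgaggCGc
Most CpGs of the *Nat8f4* stretch lie near its end, close to the start of the gene. No methylation was measured in these libraries.

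The libraries held 102159175, 136515436 and 104422632 counts in Ctrl, and 116308383, 108957256 and 118413082 counts in TKO, in the order of the replicates. At these depths 3 counts, used as the smallest detectable level, correspond to 0.0232 to 0.0303 CPM, a unit of counts divided by library size after TMM scaling. Intervals and floors on counts reflect counting error alone, because reads copied in PCR are not independent molecules. In bulk RNA a higher value can come from more cells that express a gene or from more RNA per cell, and these cannot be told apart. The libraries carried basal and suprabasal keratinocyte markers. Basal markers included *Krt5* at 10849 CPM in Ctrl against 8018 CPM in TKO and *Trp63*, the transcription factor of basal keratinocytes, at 892 CPM and 944 CPM. The 8 basal markers summed to 24329, 24101 and 18107 CPM in Ctrl replicates 1, 2 and 3 and to 15025, 16826 and 19231 CPM in TKO replicates 1, 2 and 3. The 6 suprabasal markers, led by *Krt1*, summed to 18626, 18219 and 20100 CPM in Ctrl and to 16288, 12319 and 13069 CPM in TKO. The basal sums overlapped between the groups and the suprabasal sums did not. On the scale of CPM per kb of exon, the suprabasal keratins *Krt10* and *Krt1* averaged 3983 and 2252 in Ctrl, and the basal keratins *Krt5* and *Krt14* 4909 and 3065, so the libraries labelled as basal cells also held suprabasal markers at high levels.

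*Nat8f2* was nearly silent in Ctrl and expressed in TKO. It had 4, 0 and 0 counts in Ctrl replicates 1, 2 and 3, and 197, 260 and 279 counts in TKO replicates 1, 2 and 3. In CPM these are 0.0404, 0 and 0 in Ctrl, and 1.67, 2.35 and 2.29 in TKO. All TKO libraries lay far above all Ctrl libraries, and the few Ctrl reads came from 1 embryo. The 736 TKO counts against 4 Ctrl counts give a ratio of 177 after scaling, with an exact 95% counting interval of 68.8 to 651. That interval pools the reads of each group, so it does not measure the spread between embryos and is not a test. The fitted log2 fold change was 7.30, and it was 10.95 without Ctrl replicate 1, which held all Ctrl reads, so the size of the fold rests on the few reads of that library. Among the TKO libraries the level was 2.11 ± 0.377 CPM (SD, n = 3).

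Few genes in the table matched the counts of *Nat8f2* in both groups. At most 4 counts in every Ctrl library were found for 26097 genes, and 2 of these had at least 197 counts in every TKO library. The other gene, named after its values were seen, was *Gm11331*, an unprocessed pseudogene on chromosome 13 with no count in Ctrl and 213, 283 and 504 counts in TKO. Both limits are the values of *Nat8f2* itself, so few genes can meet them and this is a description. *Gm42752*, also named after its values were seen, missed them at 0.0101, 0 and 0 CPM in Ctrl replicates 1, 2 and 3. It was at 1.16, 2.27 and 0.937 CPM in TKO replicates 1, 2 and 3.

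*Nat8f4*, the closest relative of *Nat8f2* and its neighbour on one side, was expressed in both groups. It had 105, 150 and 202 counts in Ctrl replicates 1, 2 and 3, and 171, 153 and 275 in TKO replicates 1, 2 and 3, or 1.06, 1.16 and 1.87 CPM against 1.45, 1.39 and 2.26 CPM. The groups overlapped, and the third replicate was the highest of each. Its log2 fold change was 0.32 (SE 0.390, 95% interval -0.56 to 1.19) and the adjusted p-value was 0.9998 in the quasi-likelihood test of edgeR over all genes. The upper end of that interval is a 2.28-fold increase.

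*Nat8f1* was also expressed in both groups. Its counts were 51, 47 and 49 in Ctrl replicates 1, 2 and 3, and 32, 67 and 85 in TKO replicates 1, 2 and 3, or 0.515, 0.364 and 0.455 CPM against 0.272, 0.607 and 0.699 CPM. The TKO libraries lay on both sides of the Ctrl libraries. Its log2 fold change was 0.24 (SE 0.517, 95% interval -0.91 to 1.40), and edgeR gave an adjusted p-value of 0.9998. The value was -0.017 without TKO replicate 3. *Tprkb*, on the other strand, shares 932 of the 3380 exonic bases of *Nat8f1* (27.6%) and had 1481 to 2327 counts a library, so without strand information its reads and those of *Nat8f1* cannot be told apart there.

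The other 5 members were at or under the smallest detectable level. *Nat8f3* and *Nat8f5* had no count in any library. *Nat8f7* had 1 count and *Nat8f6* had 3 counts, all in Ctrl replicate 3. *Nat8* itself, the member best known from kidney, had 1 count, in TKO replicate 2. None of the 5 exceeded 3 counts in a library, in either group, and none passed the filter for the test. Of windows of 75 bases in the exons, 80.1% recur elsewhere in the region for *Nat8f7*, 63.3% for *Nat8f3* and 62.4% for *Nat8f6*, so their counts are uncertain if reads that match several places were dropped. The share was 0 for *Nat8f5*, apart from the 171 bases that it shares with *Nat8f6* in place, and 2.65% for *Nat8*, so most of their windows occur once within 500 kb of the cluster.

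The same check bears on the active members. Of the windows of *Nat8f2* 11.01% occur at the *Nat8f4* locus, and 10.1% of those of *Nat8f4* occur at the *Nat8f2* locus. The remaining windows of the pair, most of each gene, were found at 1 of these 2 loci only.

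**Figure D2:**
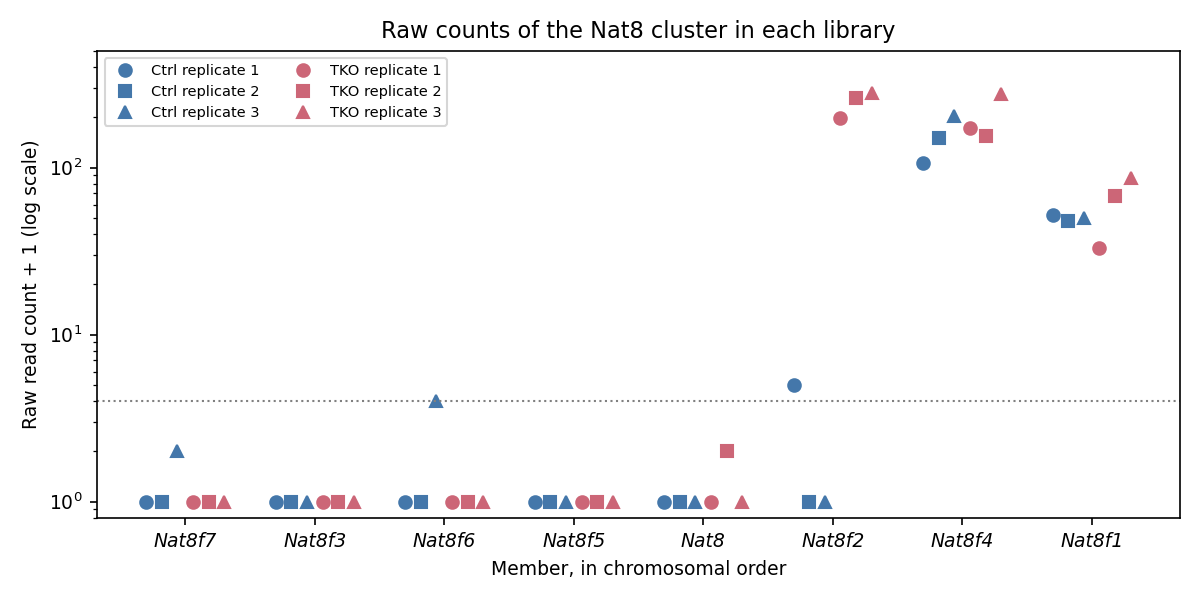
Raw read count plus 1 (log scale) for each member in chromosomal order, 1 point per library, with Ctrl in blue, TKO in red and the replicate given by the shape. The dotted line marks 3 counts. *Nat8f2* moves from at most 4 counts in Ctrl to 197 to 279 in TKO, *Nat8f4* and *Nat8f1* overlap between groups, and the other 5 members stay at or under the line.

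Of the 8 members 3 passed the filter, and *Nat8f2* passed through its TKO values alone. Neither of the 2 others was called by edgeR or by DESeq2, where a call needs a fold change of over 1 on the log2 scale, in either direction, at an adjusted p-value under 0.05. Among all 20622 genes tested, edgeR called 27 higher in TKO (0.131%) and none lower, and DESeq2 called 193 higher (0.936%) and 21 lower (0.102%), 1.04% in both directions, so no call among 2 genes is near the background. The groups of *Nat8f2*, which chose the cluster, did not overlap, and those of *Nat8f4* and *Nat8f1* did. Of all tested genes 6.35% had non-overlapping groups with TKO higher.

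Levels were compared between members per kb of exon. In Ctrl the order was *Nat8f4* at 0.247 CPM per kb, *Nat8f1* at 0.131 and *Nat8f2* at 0.00315. In TKO *Nat8f2* stood first at 0.493 CPM per kb, above *Nat8f4* at 0.308 and *Nat8f1* at 0.156. *Nat8f4* and *Nat8f1* kept their order, with no overlap of their libraries in either group. In TKO replicates 1, 2 and 3 the values of *Nat8f2* were 0.392, 0.551 and 0.537 CPM per kb against 0.263, 0.251 and 0.410 for *Nat8f4*. *Nat8f2* was thus the higher of the pair within each TKO library, although its lowest library lay under the highest of *Nat8f4*. *Nat8f2* held 53.2%, 55.8% and 46.5% of the summed level per kb of the cluster in TKO replicates 1, 2 and 3, and 2.67%, 0% and 0% in Ctrl. Among 21571 protein-coding genes its mean level per kb moved from percentile 13.8 in Ctrl to percentile 47.7 in TKO, while *Nat8f4* stood at 44.2 and 44.9 and *Nat8f1* at 40.6 and 40.9.

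The genes around the cluster were then examined to ask whether neighbours of *Nat8f2* were activated too. Within 500 kb of the cluster the annotation holds 53 other genes, of which 38 were in the count table and 22 were tested, 16 of them protein coding. No neighbour was called by edgeR or by DESeq2, a count that is near the background of 0.131% for edgeR. None had an unadjusted p-value under 0.05, where 6.08% of all genes tested did. There were 11 genes with a positive log2 fold change, and the median was -0.0033, beside 0.0128 for all genes tested. The values ranged from -0.52 for *Gm10443*, a pseudogene, to 0.67 for *Gm19265*, a lncRNA whose 113 counts in TKO replicate 2 stood above 8 to 40 counts in the other 5 libraries. No call was made with the window at 250 kb (12 tested) or at 1000 kb (46 tested). At 1000 kb the values ranged from -1.04 to 1.90. There 3 genes had non-overlapping groups with TKO lower and 0 with TKO higher, beside 5.11% and 6.35% of all genes tested.

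Inside the cluster, genes that overlap or separate the members were examined next. *Gm43309*, a processed pseudogene within *Nat8f2* on the other strand, had 1 count in all, in Ctrl replicate 3. *Alms1-ps1*, which overlaps *Nat8f3*, averaged 0.211 CPM in Ctrl against 0.186 CPM in TKO, with a log2 fold change of -0.18 (SE 0.718). *Tprkb*, a subunit of the KEOPS complex that modifies tRNA, averaged 15.7 ± 1.99 CPM in Ctrl against 14.8 ± 1.75 CPM in TKO (SD, n = 3). *Ptges3-ps*, a processed pseudogene between *Nat8* and *Nat8f2*, averaged 25.7 ± 6.38 CPM in Ctrl against 25.8 ± 5.31 CPM in TKO (SD, n = 3), at a log2 fold change of 0.01 (SE 0.216), values that are uncertain where reads were shared with its parent gene. *Alms1-ps2*, between *Nat8f3* and *Nat8f6*, had 1 to 9 counts a library and was not tested. The groups overlapped for each of these 5 genes, of which the last 2 overlap no member and are named after their values were seen.

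The 5 tested protein-coding genes nearest to the cluster on its proximal side were *Alms1*, *Egr4*, *Fbxo41*, *Cct7* and *Pradc1*. *Alms1*, a gene of the centrosome and the base of the cilium, ends 3.97 kb before the cluster and averaged 44.4 ± 4.04 CPM in Ctrl against 52.0 ± 8.73 CPM in TKO (SD, n = 3), or a log2 difference of 0.23 (SE 0.157). *Cct7*, a chaperonin subunit, had a log2 fold change of -0.08, and *Pradc1* one of -0.01. *Egr4* and *Fbxo41* were under 0.5 CPM in every library, with log2 fold changes of -0.05 (SE 1.01) and 0.18 (SE 0.875).

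On the distal side the nearest 5 were *Dusp11*, *Add2*, *Tgfa*, *Fam136a* and *Snrpg*. *Dusp11*, an RNA phosphatase, lies 26.0 kb from the cluster and averaged 221 ± 17.7 CPM in Ctrl against 224 ± 13.8 CPM in TKO (SD, n = 3), or a log2 difference of 0.02 (SE 0.130). *Tgfa*, an EGF receptor ligand of keratinocytes, was at 17.8 CPM and 18.0 CPM. *Add2*, *Fam136a* and *Snrpg* had log2 fold changes of -0.30, -0.15 and -0.03. Within 500 kb the only neighbour with groups that did not overlap was *Pcyox1*, named after its values were seen. It was at 258 CPM in Ctrl against 214 CPM in TKO, and edgeR gave an adjusted p-value of 0.824. Non-overlapping groups with TKO lower were found in 5.11% of all tested genes.

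**Figure D3:**
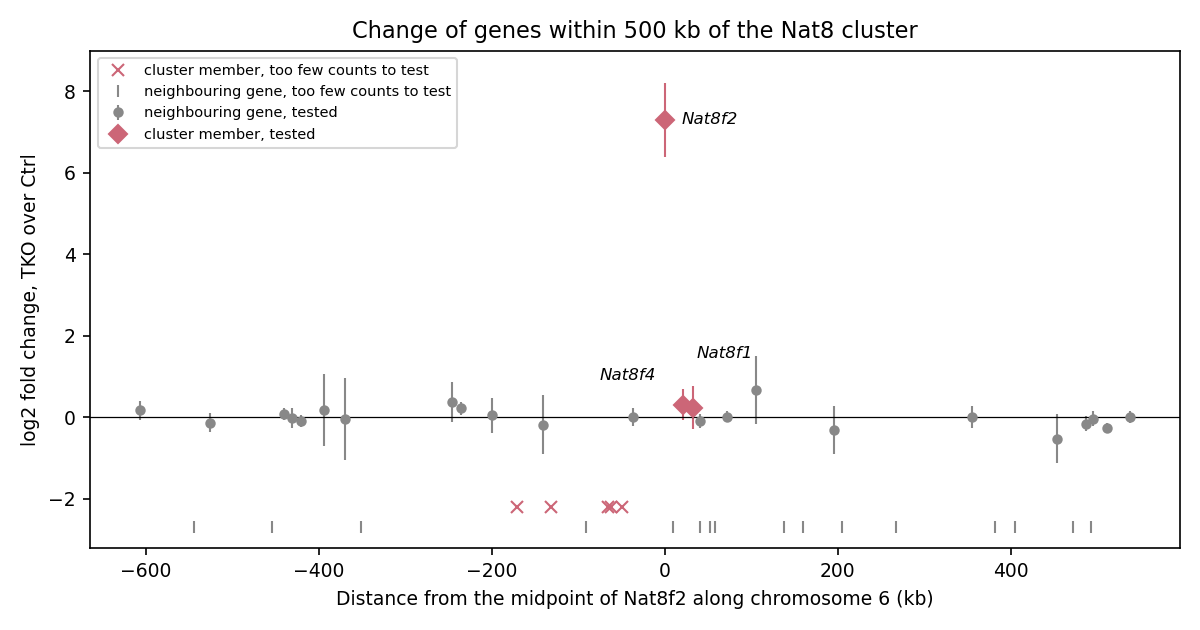
Log2 fold change of TKO over Ctrl (error bars, SE) against the distance in kb from the midpoint of *Nat8f2*, with cluster members in red, neighbouring genes in grey, and genes with too few counts to test as red crosses and grey ticks at the bottom. *Nat8f2* stands at 7.30, and the 22 tested neighbours lie between -0.52 and 0.67.

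The nearest called genes on chromosome 6 were far away. *Kbtbd12*, at 2.63 Mb on the distal side, and *M1ap*, at 2.68 Mb on the proximal side, were called by DESeq2 with log2 fold changes of 4.30 and 2.63, but not by edgeR, which gave adjusted p-values of 0.3005 and 0.212. They are named here after their values were seen. Leaving *Nat8f2* aside, edgeR called 2 genes on the chromosome, *Atf7ip* at 50.6 Mb and *Col28a1* at 77.5 Mb.

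The 5 tested genes whose log2 CPM was most like that of *Nat8f2* over the 6 libraries were *Gm42753* (Pearson r 0.997), *Gm47887* (0.997), *Prr19* (0.994), *Gm7897* (0.993) and *Vmn1r-ps135* (0.990). The 6 points share the same libraries and depth, and they fall into the groups of Ctrl and TKO, so these values mainly describe a difference between groups. None of the 5 lies on chromosome 6. *Vmn1r-ps135*, a pseudogene of the vomeronasal receptor family, was called by edgeR at an adjusted p-value of 0.0284 and was at 0.867, 1.51 and 1.92 CPM in TKO replicates 1, 2 and 3. *Prr19*, the only protein-coding gene of the 5, was at 0.357, 0.480 and 0.386 CPM in TKO and under 0.1 CPM in each Ctrl library.

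The other steps of the mercapturic acid pathway were compared from lists of 47 genes, all of them in the count table and 43 tested. edgeR called 1 of them, *Kyat3*, against the background of 0.131%, and DESeq2 called 2, *Kyat3* and *Dpep1*, against 0.936%. There were 16 genes with a positive log2 fold change, and the median was -0.14, beside 0.0128 for all genes tested. Groups did not overlap for 7 genes with TKO higher and for 4 with TKO lower, beside 6.35% and 5.11% of all genes tested. The called genes belong to different steps of the pathway.

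Glutathione synthesis showed no call among 3 tested genes. The most abundant gene of each list is the one with the highest CPM, which is not corrected for length. *Gclc*, the catalytic subunit of the first enzyme and the most abundant of this list, averaged 53.4 ± 0.542 CPM in Ctrl against 51.4 ± 0.892 CPM in TKO (SD, n = 3). *Gclm*, named after its values were seen, went the other way, at 24.1 CPM in Ctrl against 33.1 CPM in TKO, and edgeR gave an adjusted p-value of 0.687. The groups of both genes did not overlap, beside 5.11% of all genes tested with TKO lower and 6.35% with TKO higher. Of the glutathione transferases 25 were tested, 9 had a positive log2 fold change and none was called. *Gsto1*, the most abundant, averaged 132 CPM in Ctrl against 119 CPM in TKO. *Mgst1*, a microsomal transferase named after its values were seen, was at 22.8, 20.8 and 25.6 CPM in Ctrl replicates 1, 2 and 3 and at 50.5, 32.7 and 36.5 CPM in TKO replicates 1, 2 and 3. All TKO libraries of *Mgst1* were above the Ctrl libraries, but its log2 fold change of 0.79 is under the threshold for a call, and the adjusted p-value was 0.233 from edgeR and 0.0162 from DESeq2. Groups of the transferases did not overlap for 4 genes with TKO higher and 2 with TKO lower, beside 6.35% and 5.11% of all genes tested. The 2 lower genes, *Mgst3* and *Gsta2*, also named after their values were seen, had log2 fold changes of -0.56 and -0.46.

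The list of enzymes that cleave glutamyl groups, not all of which act on the glutathione conjugate, gave 7 tested genes and no call. All 7 log2 fold changes were negative, with a median of -0.39. *Ggt6*, the most abundant of this list, averaged 23.6 ± 1.99 CPM in Ctrl against 18.2 ± 4.69 CPM in TKO (SD, n = 3). The lowest value was that of *Chac1*, a cytosolic enzyme that splits glutathione, named after its values were seen. *Chac1* was at 1.20, 0.255 and 2.96 CPM in Ctrl replicates 1, 2 and 3 and at 0.161, 0.0453 and 0.403 CPM in TKO replicates 1, 2 and 3. Its groups overlapped, and edgeR gave an adjusted p-value of 0.578.

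The next step removes glycine from the cysteinylglycine conjugate. *Dpep1*, a membrane dipeptidase known from kidney tubules, was at 0.555, 1.997 and 1.27 CPM in Ctrl replicates 1, 2 and 3 and at 6.02, 11.4 and 11.6 CPM in TKO replicates 1, 2 and 3. The groups did not overlap. The log2 fold change of *Dpep1* was 2.92 (SE 0.464), and its adjusted p-value was 0.0659 from edgeR and 1.22e-09 from DESeq2, so the call depends on the tool. It also depends on the settings of edgeR, which gave 6.99e-16 with no filter on low counts and 0.0448 without TKO replicate 1. With the replicate number as a block, edgeR gave 0.00422. *Cndp2*, a cytosolic dipeptidase and the most abundant of the 4 tested genes of this list, averaged 52.2 CPM in Ctrl against 56.5 CPM in TKO.

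The last list holds the enzymes that act on the cysteine conjugate in competition with acetylation or that remove the acetyl group. *Kyat3*, a cysteine conjugate beta-lyase and kynurenine aminotransferase, was the most abundant of its 4 genes, at 36.1, 35.8 and 29.7 CPM in Ctrl replicates 1, 2 and 3 and at 124, 197 and 117 CPM in TKO replicates 1, 2 and 3. The groups were well apart. *Kyat3* rose by 2.11 on the log2 scale (SE 0.208), and edgeR gave an adjusted p-value of 0.00461. The adjusted p-value was between 0.0554 and 0.0743 when any 1 of the Ctrl replicates was left out. *Acy1* and *Acy3*, which remove acetyl groups from such conjugates, had log2 fold changes of -0.14 (SE 0.151) and 0.05 (SE 0.248), and *Kyat1*, a further lyase, one of 0.05 (SE 0.152). Acetyltransferases outside the cluster and the pathway were listed beside them, and of 16 genes 10 were tested, 2 had a positive log2 fold change and none was called, with *Nat10*, which acetylates RNA, the most abundant at 68.2 CPM in Ctrl against 72.5 CPM in TKO.

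**Figure D4:**
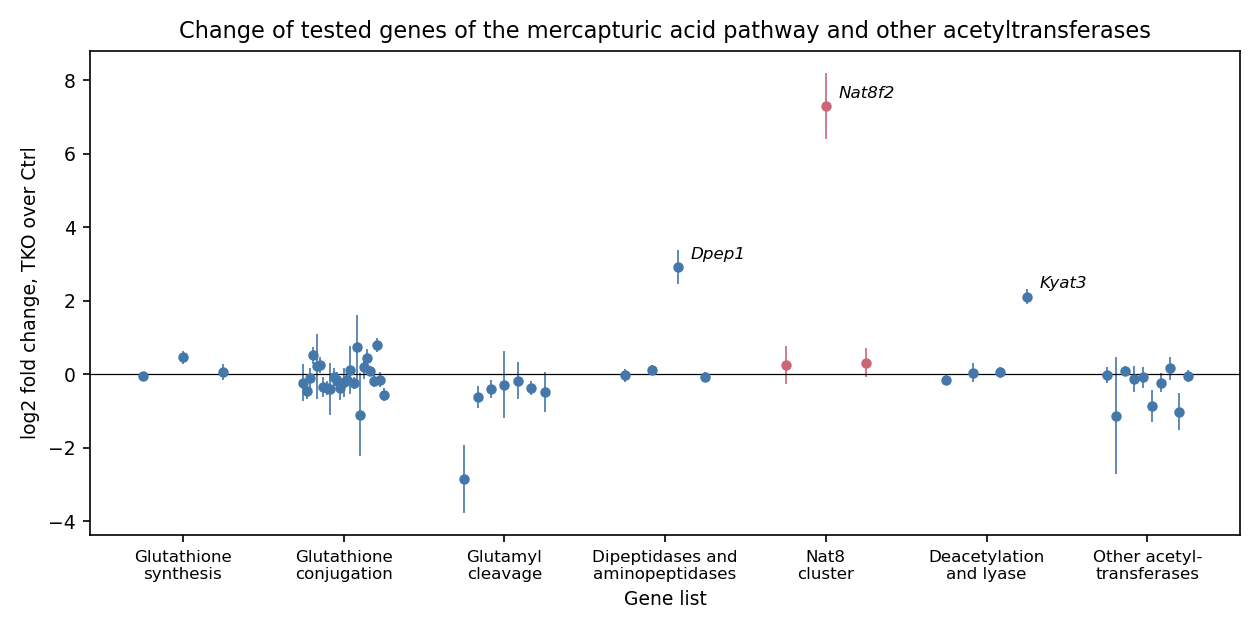
Log2 fold change of TKO over Ctrl (error bars, SE) for every tested gene of the pathway lists, in the order of the steps, and of the list of other acetyltransferases, with the *Nat8* cluster in red. *Nat8f2* stands at 7.30, *Dpep1* at 2.92 and *Kyat3* at 2.11, and no gene of the first 3 lists was called.

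Markers of tissues that use *Nat8* genes were checked beside the change of *Nat8f2*. Of 13 kidney proximal tubule markers 3 were tested and none was called, beside 0.131% of all genes tested by edgeR and 1.04% by DESeq2. The summed level of the 13 was 0.889, 0.557 and 1.11 CPM in Ctrl replicates 1, 2 and 3 and 0.357, 0.679 and 1.23 CPM in TKO replicates 1, 2 and 3, and *Slc22a12* was at 0. The most abundant of them, *Cubn*, averaged 0.306 CPM in Ctrl against 0.416 CPM in TKO, with 33, 45 and 68 counts in TKO replicates 1, 2 and 3. The defining gene *Lrp2* was at 0.221 and 0.0712 CPM. The summed level of 10 hepatocyte markers was 0.402 to 2.27 CPM in Ctrl and 0.382, 0.0815 and 26.1 CPM in TKO replicates 1, 2 and 3. The high value came from *Ttr*, the most abundant of the list, with 25.4 CPM in TKO replicate 3, where *Alb*, the defining gene, was at 0.0740 CPM. The part of kidney or liver cells in the change of *Nat8f2* was not tested.

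Markers of other cells of the skin moved with the groups in part. The summed level of 6 Merkel cell markers was 8.76, 9.90 and 9.81 CPM in Ctrl replicates 1, 2 and 3 and 3.53, 2.02 and 3.72 CPM in TKO replicates 1, 2 and 3, with *Krt8* the most abundant, *Atoh1*, the defining factor, at 1.23 CPM in Ctrl against 0.222 CPM in TKO, and none of the list at 0 in all libraries. All 5 tested genes of that list were lower in TKO with no overlap of the groups, beside 5.11% of all genes tested, and DESeq2 called 2 of them lower, *Krt8* and *Isl1*, beside 0.102%, and edgeR none. The summed level of 6 skeletal muscle markers was 1.85, 2.85 and 3.20 CPM in Ctrl and 4.75, 10.7 and 10.1 CPM in TKO, with *Actn2* the most abundant, *Myod1*, the defining factor, at 0.111 CPM in Ctrl against 0.229 CPM in TKO, and none of the list at 0. DESeq2 called 2 of the 6 higher, *Actn2* and *Acta1*, beside 0.936% of all genes tested, and edgeR none. The suprabasal sums given above, which come mainly from *Krt1* and *Krt10*, were lower in all TKO libraries. *Krt1* and *Krt10* were the 2 of 6 genes whose groups did not overlap, beside 5.11% of all genes tested with TKO lower. Log2 fold changes were positive for 2 of the 6, *Sbsn* at 0.41 and *Flg* at 0.24, and were -0.05 for *Ivl* and -0.03 for *Krtdap*. Neither tool called a gene of that list, beside 0.131% of all genes tested by edgeR and 1.04% by DESeq2. The muscle, Merkel cell and suprabasal sums did not overlap between the groups, as for *Nat8f2*, and their part in that result was not tested. The summed levels of fibroblast (1207 to 3371 CPM, led by *Col1a1*), immune (9.76 to 84.8 CPM, led by *Csf1r*), endothelial (24.4 to 62.4 CPM, led by *Cdh5*) and melanocyte markers (7.07 to 15.6 CPM, led by *Mitf*) overlapped between the groups. Endothelial sums were 26.0, 26.0 and 36.0 CPM in Ctrl and 24.4, 62.4 and 50.6 CPM in TKO. Log2 fold changes were positive for 5 of 5 tested endothelial, 6 of 6 immune, 5 of 6 melanocyte and 2 of 7 fibroblast genes. Of these lists DESeq2 called 1 gene, *Mlana* of the melanocyte list, beside 1.04% of all genes tested. *Mlana* was at 0.141, 0.0155 and 0.167 CPM in Ctrl replicates 1, 2 and 3 and at 0.994, 1.53 and 0.304 CPM in TKO replicates 1, 2 and 3. The adjusted p-value of *Mlana* was 0.0206 from DESeq2 and 0.360 from edgeR. *Isl1*, *Acta1*, *Mlana* and, in the next sentence, *Krt15* are named after their values were seen. Among basal markers, *Krt15* was lower in TKO by DESeq2, at -1.18 on the log2 scale, and the other 7 were not called. DESeq2 called 0.102% of all genes tested lower. The adjusted p-value of *Krt15* was 0.000660 from DESeq2 and 0.185 from edgeR.

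The targeted genes were compared beside *Nat8f2* within the TKO group. *Setdb1* was at 125.5, 117.9 and 121.1 CPM in Ctrl replicates 1, 2 and 3 and at 95.3, 62.3 and 74.9 CPM in TKO replicates 1, 2 and 3. All TKO libraries were lower, and the log2 fold change was -0.65 (SE 0.161; adjusted p-value 0.286 from edgeR and 0.0449 from DESeq2). TKO replicate 1, which had the highest *Setdb1* of the TKO group, had the lowest *Nat8f2* and *Dpep1* and the lowest muscle marker sum of that group. Single muscle markers differed, with *Actn2* at 2.95, 4.96 and 2.75 CPM in TKO replicates 1, 2 and 3. *Kyat3* was lowest in TKO replicate 3, and with 3 libraries no relation was tested. *Suv39h1* and *Suv39h2* had log2 fold changes of -0.10 and 0.11. *Suv39h1* averaged 83.7 CPM in Ctrl against 78.0 CPM in TKO. *Suv39h2*, which carried the deletion in both groups, averaged 16.2 CPM against 17.5 CPM, so reads were counted for it in every library. Counts over whole genes do not separate deleted exons from the others. By staining at E16.5, the study reports loss of Suv39h1 and Setdb1 protein in the basal layer of TKO embryos, which RNA counts do not measure.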

How the data were processed

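Bulk RNA-seq of sorted basal keratinocytes was analysed for 3 Ctrl and 3 TKO embryos. The methods of the study state rRNA depletion, paired-end sequencing, trimming with fastp, alignment to GRCm39 with STAR and analysis with DESeq2, while the submitters' processing notes name GRCm38. The authors deposited raw counts per Ensembl gene, 1 column per library, without normalization. The counting program, its annotation and its strand setting are not given in the sources used here. Of 55536 identifiers, 51477 matched GENCODE vM39 (GRCm39), which gave symbols, positions and exon lengths. Promoter sequences came from RefSeq (GRCm38.p6) and were placed on GRCm39 by exact match, and all coordinates are GRCm39.

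Counts were filtered with filterByExpr (minimum count 10, minimum total 15), scaled by TMM and tested with edgeR 4.0.16 (glmQLFit robust, glmQLFTest) in R 4.3.3 over 20622 genes, with Benjamini-Hochberg adjustment. Intervals of log2 fold changes use the t quantile at the degrees of freedom of edgeR. A gene was called where this p-value was under 0.05 and the log2 fold change lay outside -1 to 1. The labels name the libraries as separate replicates, and p-values measure the spread between them. Total counts ran from 102159175 to 136515436. Scripts were tested on simulated counts. Coding sequences were aligned with edlib 1.3.9.post1.

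Named genes are the 8 members, genes that overlap them, the 5 nearest tested protein-coding genes on each side, the neighbours with the largest change in each direction, called and most abundant genes of the pathway lists, the 5 genes most like *Nat8f2*, the targeted genes, and the defining and most abundant gene of each marker list. The members, lists and tests were chosen with earlier results of these data known. Alternatives were DESeq2 1.42.0, RLE size factors, the replicate block, sex as a covariate, no filter on low counts, a filter of at least 10 counts per library, no fold threshold, neighbour windows of 250 and 1000 kb, and each library left out.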

Additional observations from a re-analysis of the deposited data

How the results depend on the processing

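Members other than *Nat8f2* and neighbours of the cluster gave 0 calls under every alternative that was run. The number of members tested was 3 and became 6 with no filter on low counts, with no further call. The log2 fold change of *Nat8f1* was reversed to -0.0171 without TKO replicate 3 and ran from -0.0171 to 0.55 when libraries were left out, that of *Nat8f4* from 0.06 to 0.61 and that of *Nat8f2* from 6.67 to 10.95. With at least 10 counts in every library *Nat8f2* was not tested. Of all genes 27 were called, 214 with DESeq2, 235 with no filter (213 higher and 22 lower, with the median log2 fold change of all genes at -0.11), 9 with at least 10 counts in every library and between 7 and 81 with 1 library left out. Calls in the lists of the pathway and other acetyltransferases numbered 1, 2 with DESeq2 (*Kyat3* and *Dpep1*), 3 with no filter (these and *Chac1*, lower) and between 0 and 2 with 1 library left out, with 0 when any 1 of the Ctrl replicates was left out and 2 without TKO replicate 1. The cause of these moves was not tested.

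Replicate numbers are shared between the groups. Same-numbered libraries deviated together with correlations of 0.168, 0.0873 and 0.127, against -0.161 to 0.0398 for libraries of different numbers, so each library correlated best with its own number, a hint from the data. The column names also give same-numbered libraries of the groups consecutive sample numbers. The study used littermates without the recombinase as controls unless noted, but does not tie a Ctrl embryo to a TKO embryo by replicate number. The labels name no shared litter and 1 of the 3 values is under 0.1, so the main fit did not take the numbers as pairs. A pairing by litter remains possible. With the replicate block 45 genes were called, of the pathway lists 2, *Kyat3* and *Dpep1* (adjusted p-value 0.00422), and of the other members and the neighbours 0. With 3 libraries a group, changes of *Nat8f1* or *Nat8f4* within the intervals given cannot be told from none.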
